A study of Bos taurus with 57 samples.

Results

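Of the 24616 genes listed for bovine anterior pituitary, arcuate nucleus and testes, 4 are described here, named by their Ensembl identifiers: ENSBTAG00000020100, ENSBTAG00000007237, ENSBTAG00000012925 and ENSBTAG00000008216. They were chosen because they were strongly lower on a low plane of nutrition in the anterior pituitary and leaned the same way in the arcuate nucleus. Both diet differences therefore chose the genes, and they are given as descriptions with no test. The rule for the choice named neither the diet difference in the testes nor the covariation of the genes among libraries of 1 diet. Both were tested. Levels in the tissues include the values that chose the genes and are also given with no test.

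RNA-seq libraries came from Holstein Friesian male calves on 1 of 2 diets, slaughtered at 126 days of age. The labels call the diets high and low plane and give a growth of 1.08 kg/day on the high plane and 0.5 kg/day on the low plane. The high plane calves received more milk replacer and concentrate to appetite, and the low plane calves a restricted allowance. The groups held 9 high plane and 10 low plane libraries in the anterior pituitary, 10 and 10 in the arcuate nucleus, and 10 and 8 in the testes. Each library is one sample of a whole tissue, so that fewer cells of a type and less RNA per cell cannot be told apart.

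The arcuate nucleus is a part of the hypothalamus whose neurons respond to signals of energy status and act on feeding and on the release of gonadotropin releasing hormone. The anterior pituitary secretes growth hormone and the gonadotropins, among other hormones. The gonadotropins act on the testes, which make sperm and testosterone. The same calves gave all 3 tissues, but the labels do not say which calf a library came from.

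Library depth ranged from 898979 to 32009433 counted reads, and without the arcuate library C22 the lowest was 6895844. All 57 libraries correlated best with libraries of their own labelled tissue, including the testes library A48, whose title carries the letter of the pituitary libraries. Within each tissue some libraries stood apart on a library score, the mean log2 CPM (the CPM unit is the read count of a gene scaled to the size of its library) of 200 genes that led the spread between libraries in the other tissues, with the 4 genes left out. Below the largest gap in that score lay 5 of 19 pituitary libraries (3 high plane and 2 low plane), 2 of 20 arcuate libraries (both low plane) and 6 of 18 testes libraries (1 high plane and 5 low plane). Results that move with this split are given with it and without those libraries.

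In the anterior pituitary the 4 genes were 2.76-fold to 5.38-fold higher on the high plane than on the low plane. ENSBTAG00000008216 ranged from 7.60 to 29.6 CPM with a median of 12.95 in the 9 high plane libraries, and from 0.814 to 8.04 CPM with a median of 2.34 in the 10 low plane libraries. Its log2 fold change, low over high plane, was -2.43 ± 0.378 (SE), the fourth most negative of the 14411 genes tested. In all, 9 of the 10 low plane libraries lay below every high plane library.

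ENSBTAG00000020100 ranged from 5.13 to 19.1 CPM with a median of 7.88 on the high plane and from 0.516 to 5.90 CPM with a median of 1.49 on the low plane. The difference was -2.37 ± 0.436 (SE) on the log2 scale, and the low plane mean was 19.3% of the high plane mean. Within the high plane this gene spread over 3.71-fold, and within the low plane over 11.4-fold, from 5 reads in library A46 to 116 reads in library A27.

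ENSBTAG00000007237 ranged from 7.04 to 19.4 CPM with a median of 9.97 on the high plane and from 1.45 to 7.28 CPM with a median of 2.64 on the low plane. The resulting log2 fold change was -1.96 ± 0.303 (SE). In this gene, as in ENSBTAG00000008216 and ENSBTAG00000020100, the low plane library A27 was the 1 that reached into the high plane range.

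ENSBTAG00000012925 had the smallest difference of the 4 genes, and it was the only one of them whose groups did not overlap. It ranged from 1.90 to 4.09 CPM with a median of 3.34 on the high plane and from 0.516 to 1.63 CPM with a median of 1.16 on the low plane. The log2 difference came to -1.46 ± 0.211 (SE). All 10 low plane libraries lay below all 9 high plane libraries, a separation seen in 0.16% of the genes tested. By edgeR's quasi-likelihood test 81 genes (0.562%) differed, and 71 of them (0.493% of the genes tested) were lower on the low plane, at an FDR (Benjamini-Hochberg adjusted p) of 0.05, and all 4 genes were among them. Since this contrast chose the genes, nothing is read from that count.

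**Figure D1:**
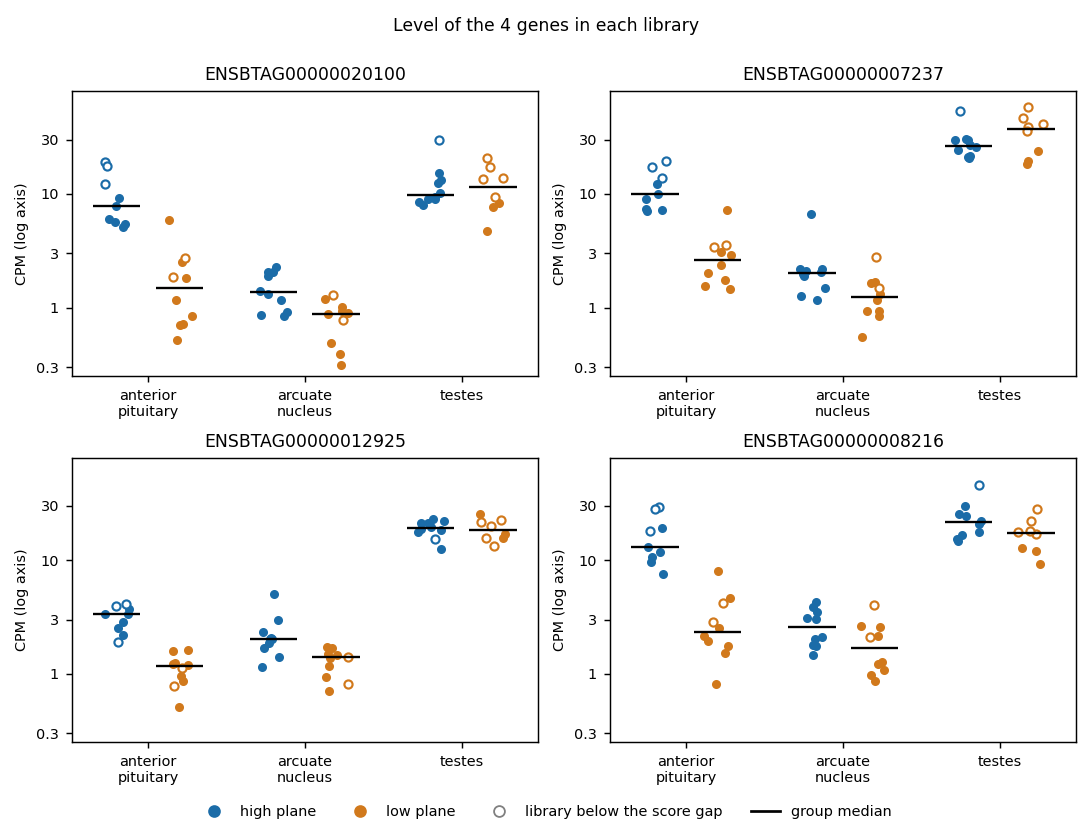
Level of each gene in every library in CPM on a log axis, by tissue and diet. Each point is 1 library, open points are libraries below the gap in the library score, and the bar is the group median. In the anterior pituitary ENSBTAG00000012925 shows no overlap of the diets, while in the other genes the low plane library A27 reaches into the high plane range.

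In the arcuate nucleus all 4 genes had lower means on the low plane, but every pair of groups overlapped. Of the 14757 genes tested there, 0% had every low plane library below every high plane library. ENSBTAG00000020100 ranged from 0.845 to 2.29 CPM with a median of 1.37 on the high plane and from 0.315 to 1.301 CPM with a median of 0.886 on the low plane. The log2 fold change was -0.84 ± 0.272 (SE), and all 10 low plane libraries lay below the high plane median.

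ENSBTAG00000012925 ranged from 1.15 to 5.04 CPM with a median of 2.03 on the high plane and from 0.713 to 1.73 CPM with a median of 1.395 on the low plane. Its difference was -0.81 ± 0.252 (SE) on the log2 scale. Again all 10 low plane libraries lay below the high plane median, and 7 of the 10 high plane libraries lay above every low plane library.

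ENSBTAG00000007237 ranged from 1.17 to 6.60 CPM with a median of 2.02 on the high plane and from 0.551 to 2.77 CPM with a median of 1.24 on the low plane. The log2 fold change of -0.84 ± 0.320 (SE) rested in part on 1 high plane library, C44, without which it was -0.46. ENSBTAG00000008216 ranged from 1.46 to 4.25 CPM with a median of 2.59 on the high plane and from 0.865 to 4.07 CPM with a median of 1.69 on the low plane. It had the smallest difference of the 4 genes, -0.52 ± 0.291 (SE), with a 95% confidence interval from -1.13 to 0.08 that spanned 0. Leaving out C44 also gave -0.72 for ENSBTAG00000020100, -0.57 for ENSBTAG00000012925 and -0.41 for ENSBTAG00000008216. In each of the 4 genes this was the value nearest 0 when single libraries were left out.

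Counts behind the arcuate values were low. The 4 genes had between 2 and 216 reads per library with a median of 24, and in the shallow high plane library C22 each rested on 2 or 3 reads. No gene passed an FDR of 0.05 in the arcuate nucleus by the quasi-likelihood test (0% of 14757), while 1464 genes (9.92%) had an unadjusted p under 0.05, of which 254 (1.72% of all tested) were lower on the low plane. edgeR's exact test and DESeq2 each called 1 gene. Without a covariate ENSBTAG00000008216 had the largest difference of the 4 genes in the anterior pituitary and the smallest in the arcuate nucleus. With the library score as covariate it was no longer the smallest in the arcuate nucleus, at -0.80 ± 0.265 (SE) against -0.74 ± 0.260 (SE) for ENSBTAG00000012925. Both contrasts chose the genes, and the order was not tested.

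Of the 71 genes called lower in the anterior pituitary, 57 were tested in the arcuate nucleus, where their median log2 fold change was -0.14. The chosen genes ran from -0.84 to -0.52 there. Another 4 pituitary-lowered genes lay inside that range, so that the chosen genes are not all of those that follow in the arcuate nucleus. Just outside it lay 1 gene at -0.844 and 1 at -0.493, with 6 genes more negative and 43 less negative in all. Over all genes tested the medians were 0.017 (anterior pituitary) and -0.010 (arcuate nucleus), against -2.16 and -0.82 for the 4 genes.

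The rule for the choice did not name the diet difference in the testes, and none of the 4 passed the threshold there, where 6.9% of 15310 genes did. By edgeR's exact test and DESeq2 none of the 4 passed either, and none had an unadjusted p under 0.05 by the quasi-likelihood test, against 30.2% of all genes. Genes lowered in every tissue formed another set, and earlier results of these data were known, so the testes may have entered the choice indirectly. Whether the diet difference itself differed between the tissues was not tested. ENSBTAG00000012925 ranged from 12.7 to 22.9 CPM with a median of 19.1 on the high plane and from 13.5 to 25.3 CPM with a median of 18.5 on the low plane. The difference was -0.01 ± 0.147 (SE) on the log2 scale (FDR = 0.974), with a 95% confidence interval from -0.31 to 0.30.

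ENSBTAG00000020100 ranged from 8.01 to 29.7 CPM with a median of 9.76 on the high plane and from 4.74 to 20.6 CPM with a median of 11.5 on the low plane. The log2 difference came to -0.07 ± 0.297 (SE; FDR = 0.862), with an interval from -0.69 to 0.55. The groups overlapped over most of their ranges, and without the high plane library B42 the value was 0.13.

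ENSBTAG00000007237 ranged from 20.6 to 53.98 CPM with a median of 26.3 on the high plane and from 18.4 to 58.4 CPM with a median of 37.003 on the low plane. This was the 1 gene of the 4 with a higher mean on the low plane, by 0.30 ± 0.235 (SE; FDR = 0.334) on the log2 scale, and without the low plane library B2 by 0.17. ENSBTAG00000008216 ranged from 14.7 to 46.2 CPM with a median of 21.5 on the high plane and from 9.19 to 28.4 CPM with a median of 17.5 on the low plane. Its difference was -0.44 ± 0.243 (SE; FDR = 0.211), with an interval from -0.95 to 0.07.

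The testes values of 3 of the genes moved with the library score, whose mean was 4.15 on the high plane and 1.66 on the low plane. ENSBTAG00000007237 had a mean of 43.9 CPM in the 5 low plane testes libraries below the gap in the score and 20.4 CPM in the 3 above it. The corresponding means were 14.9 and 6.90 CPM for ENSBTAG00000020100, and 20.7 and 11.4 CPM for ENSBTAG00000008216. The single high plane testes library below the gap, B42, was the highest of its group in all 3 of these genes. ENSBTAG00000012925 had like means on both sides, 18.7 and 19.3 CPM.

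With the library score as a covariate, the low plane was lower in the testes for ENSBTAG00000008216 (log2 fold change -0.92 ± 0.166, FDR = 0.00945) and ENSBTAG00000020100 (-0.71 ± 0.172, FDR = 0.0251), and both passed the threshold by the quasi-likelihood test. Over all genes 951 of 15310 passed in that fit. ENSBTAG00000007237 turned to -0.28 ± 0.110 (FDR = 0.113), and ENSBTAG00000012925 stayed near 0 at 0.04 ± 0.154 (FDR = 0.903). Among the 9 high plane and 3 low plane testes libraries above the gap, a choice made after the data were seen, the values were -0.87, -0.62, -0.33 and -0.0046 in the same order of genes, and none passed the threshold (FDR from 0.105 to 0.993). With the side of the gap as a factor in place of the score, also added after the data were seen, ENSBTAG00000020100 was at -0.73 ± 0.199 (SE) and missed the threshold (FDR = 0.0739). With that factor 125 of 15310 genes passed, ENSBTAG00000008216 among them (quasi-likelihood test, FDR = 0.0303). The part of the score in these results was not tested.

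In the anterior pituitary the high plane libraries below the gap also had higher means in ENSBTAG00000020100, ENSBTAG00000008216 and ENSBTAG00000007237. In ENSBTAG00000012925 the means differed little, and its lowest high plane library, A51 at 1.90 CPM, lay below the gap. For ENSBTAG00000020100 the 3 libraries below it had a mean of 16.3 CPM and the 6 above it 6.53 CPM. For ENSBTAG00000008216 these means were 25.4 and 12.01 CPM, for ENSBTAG00000007237 16.8 and 8.77 CPM, and for ENSBTAG00000012925 3.31 and 3.01 CPM. Among libraries above the gap alone, the pituitary log2 fold changes were -1.87, -2.02, -1.65 and -1.37 in this order, and the arcuate ones -0.91, -0.75, -1.04 and -0.77. With the score as covariate the arcuate value of ENSBTAG00000008216 was -0.80 ± 0.265 (SE).

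**Figure D2:**
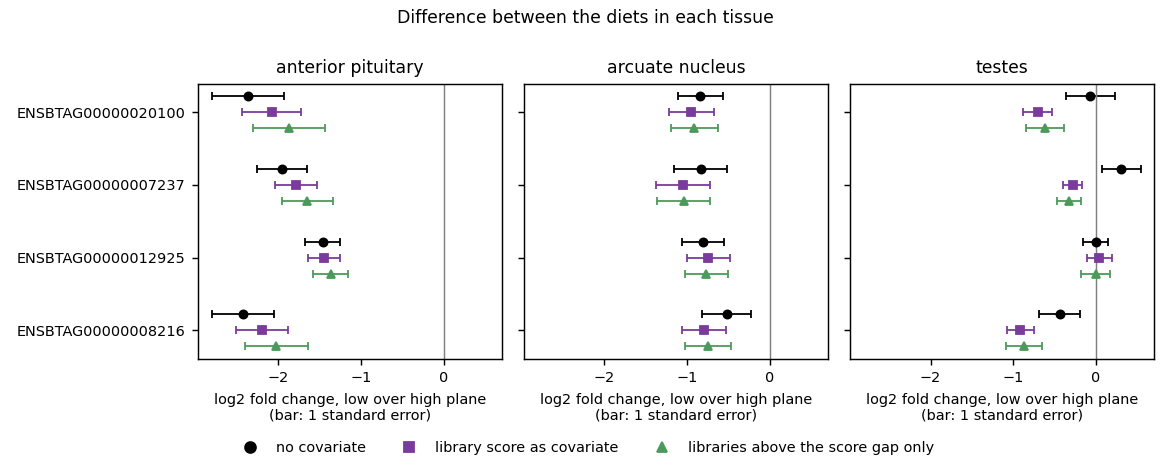
Difference between the diets as log2 fold change, low over high plane, for each gene and tissue, with bars of 1 standard error. Black circles are the fits without a covariate, squares those with the library score as covariate, and triangles those on libraries above the gap in the score. In the testes the values without a covariate lie between -0.44 and 0.30, and those of ENSBTAG00000020100, ENSBTAG00000007237 and ENSBTAG00000008216 move down with the score.

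Levels in the tissues were described in 1 fit over all 57 libraries on a common CPM scale. Averaged over the diets, all 4 genes were highest in the testes and lowest in the arcuate nucleus. These averages hold the values that chose the genes, so no FDR is given for the 4 and nothing is read from the shares of all genes that passed. In each gene all 18 testes libraries lay above all 20 arcuate libraries. The share of all genes separated in this way was not computed, so nothing is read from it. The testes exceeded the arcuate nucleus by 4.10 ± 0.232 (SE) on the log2 scale in ENSBTAG00000007237, 3.42 ± 0.266 in ENSBTAG00000020100, 3.39 ± 0.152 in ENSBTAG00000012925 and 3.09 ± 0.238 in ENSBTAG00000008216. Of the 16476 genes tested, 74.9% passed the threshold in this contrast and 41% were higher in the testes.

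The anterior pituitary exceeded the arcuate nucleus by 2.26 ± 0.257 (SE) in ENSBTAG00000020100, 1.99 ± 0.216 in ENSBTAG00000007237 and 1.93 ± 0.229 in ENSBTAG00000008216. For ENSBTAG00000012925 the value was 0.37 ± 0.145 (SE), and it was 0.29 with DESeq2 and 0.28 without the filter on low counts. Among all genes 68.1% passed the threshold in this contrast, 36.4% as higher in the pituitary.

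Testes exceeded anterior pituitary by 3.02 ± 0.153 (SE) in ENSBTAG00000012925 and 2.11 ± 0.216 in ENSBTAG00000007237. For ENSBTAG00000020100 and ENSBTAG00000008216 the differences were 1.16 ± 0.246 (SE) and 1.16 ± 0.226 (SE). In this contrast 66.4% of all genes passed, 34.1% as higher in the testes. In ENSBTAG00000012925 all 18 testes libraries lay above all pituitary libraries, and in ENSBTAG00000020100 and ENSBTAG00000008216 only 1 testes library lay above them all. For this contrast too the share of all genes separated in this way was not computed.

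The pituitary diet difference that chose the genes enters these differences, which were larger on the low plane in all 4 genes. In high plane libraries alone, ENSBTAG00000020100 was at -0.02 ± 0.299 (SE) and ENSBTAG00000008216 at 0.14 ± 0.274 (SE) between testes and pituitary. In low plane libraries alone these differences were 2.40 ± 0.395 (SE) and 2.24 ± 0.358 (SE), and they were 3.32 for ENSBTAG00000007237 and 3.81 for ENSBTAG00000012925. ENSBTAG00000012925 differed between pituitary and arcuate nucleus by 0.64 ± 0.215 (SE) on the high plane and by -0.04 ± 0.197 (SE) on the low plane.

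On the common scale the order of the 6 groups was not the same in the 4 genes. ENSBTAG00000020100 had means of 11.6 ± 7.10 CPM (SD, n = 9) in the high plane pituitary, 11.3 ± 5.70 (n = 10) in the high plane testes, 10.96 ± 5.12 (n = 8) in the low plane testes, 2.14 ± 1.85 (n = 10) in the low plane pituitary, 1.38 ± 0.487 (n = 10) in the high plane arcuate nucleus and 0.798 ± 0.342 (n = 10) in the low plane arcuate nucleus. Each of these groups overlapped its neighbour in the order.

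ENSBTAG00000008216 ran from 21.2 ± 8.24 CPM in the high plane testes over 19.4 ± 10.6 in the high plane pituitary, 15.8 ± 5.90 in the low plane testes, 3.46 ± 2.41 in the low plane pituitary and 2.52 ± 0.911 in the high plane arcuate nucleus to 1.86 ± 1.09 in the low plane arcuate nucleus. For ENSBTAG00000007237 both testes groups came first, at 32.2 ± 13.1 CPM on the low plane and 25.9 ± 8.39 on the high plane, followed by 13.5 ± 6.03 and 3.33 ± 1.95 in the high and low plane pituitary and 2.16 ± 1.52 and 1.305 ± 0.687 in the high and low plane arcuate nucleus. Neighbours in both of these orders overlapped throughout.

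In ENSBTAG00000012925 the testes groups, at 17.3 ± 3.88 CPM on the low plane and 17.3 ± 2.84 on the high plane, lay apart from the high plane pituitary at 3.61 ± 0.998. The high plane arcuate nucleus followed at 2.13 ± 1.08, ahead of the low plane pituitary at 1.26 ± 0.386 and the low plane arcuate nucleus at 1.23 ± 0.332. Only the step from testes to pituitary showed no overlap in this gene.

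**Figure D3:**
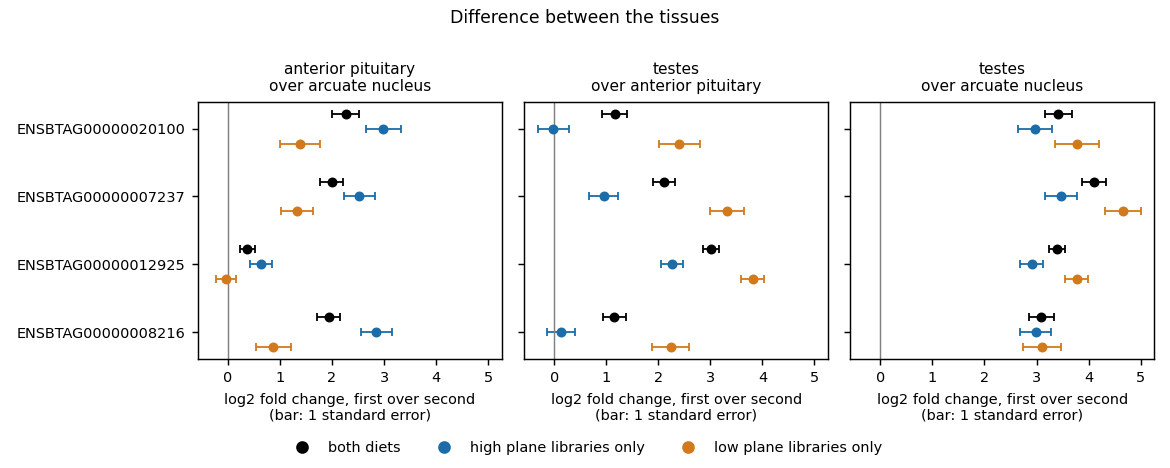
Difference between tissues as log2 fold change, first over second tissue, for each gene, with bars of 1 standard error. Black points average both diets, blue points use high plane libraries only and orange points low plane libraries only. Testes and pituitary differ little in ENSBTAG00000020100 and ENSBTAG00000008216 on the high plane, at -0.02 and 0.14, and ENSBTAG00000012925 differs little between pituitary and arcuate nucleus on the low plane.

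Ratios of 2 genes within a library depend on how libraries are scaled to each other only through the prior count of 2. That small count, added to the reads before log2 CPM is taken, shrinks ratios where reads are few. The log2 ratio of ENSBTAG00000020100 to ENSBTAG00000012925 had a mean of 1.49 ± 0.669 (SD, n = 9) in high plane pituitaries and of 0.41 ± 0.807 (SD, n = 10) in low plane pituitaries. In the arcuate nucleus it was -0.54 ± 0.606 and -0.62 ± 0.873 (SD, n = 10 each), and in the testes -0.70 ± 0.698 (SD, n = 10) and -0.77 ± 0.654 (SD, n = 8). The mean ratio was higher in the pituitary than in the other tissues, and within the pituitary it was higher on the high plane. The difference between the diets there restates the pituitary log2 fold changes that chose these genes, -2.37 and -1.46. Nothing further is read from it.

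By contrast, the log2 ratio of ENSBTAG00000020100 to ENSBTAG00000008216 had means between -1.04 and -0.58 in all 6 groups. Its pituitary means were -0.77 ± 0.314 (SD, n = 9) for high plane and -0.77 ± 0.506 (SD, n = 10) for low plane libraries. These 2 genes kept nearly the same ratio there while both differed more than 5-fold between the diets. This likewise restates the pituitary log2 fold changes that chose them, -2.37 and -2.43. Gene lengths were not used here, so that a ratio describes read counts and not transcript numbers.

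Covariation among libraries of the same diet was measured as the correlation of log2 CPM deviations from the diet mean, which leaves out the difference that chose the genes. ENSBTAG00000020100, ENSBTAG00000007237 and ENSBTAG00000008216 varied together in the anterior pituitary and the arcuate nucleus. In the testes the relations of ENSBTAG00000007237 did not exceed the background over all genes. In all, 18 relations were tested by permutation within diets, and adjusted p-values are over these 18. All 9 relations among the first 3 genes passed an adjusted p of 0.05 by Pearson's r, and 1 of the 9 relations with ENSBTAG00000012925 did. As a background, r of each gene with every other gene tested was also taken, and 7 of the 9 relations lay above the 95th percentile of both their genes.

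In the anterior pituitary (n = 19) Pearson's r among the 3 genes was 0.880 to 0.911 and Spearman's rho 0.886 to 0.896 (permutation test, adjusted p from 6e-05 to 9e-05). Without the pair of libraries farthest from the median, r was 0.804 to 0.857, and among the 14 libraries above the gap in the score 0.825 to 0.887. The 95th percentile of r over all genes was 0.590 to 0.649 for the 3 genes and 0.192 for ENSBTAG00000012925. The relations with ENSBTAG00000012925 had r of 0.571 with ENSBTAG00000020100 (permutation test, adjusted p = 0.0295), 0.473 with ENSBTAG00000008216 (adjusted p = 0.0845) and 0.415 with ENSBTAG00000007237 (adjusted p = 0.142). By Spearman's rho the relation with ENSBTAG00000008216 also passed (rho = 0.553, permutation test, adjusted p = 0.0332). Among libraries above the gap the r values with ENSBTAG00000012925 were 0.740, 0.534 and 0.536. With the score removed over all 19 libraries they were 0.712, 0.573 and 0.530, and the first 2 passed (permutation test, adjusted p = 0.0036 and 0.0346). By Spearman's rho all 3 relations passed above the gap and with the score removed (permutation test, adjusted p from 0.00135 to 0.0276). In the main fit each lay above the percentile of ENSBTAG00000012925 and below that of the other gene.

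Arcuate libraries (n = 20) gave r of 0.646 between ENSBTAG00000020100 and ENSBTAG00000007237 (permutation test, adjusted p = 0.00302), 0.818 between ENSBTAG00000020100 and ENSBTAG00000008216 and 0.794 between ENSBTAG00000007237 and ENSBTAG00000008216. Spearman's rho was 0.680 to 0.830, and r without the 2 farthest libraries 0.609 to 0.793. Among the 18 libraries above the gap r was 0.596 to 0.809. The 95th percentile over all genes was 0.428 to 0.590 here. With ENSBTAG00000012925, r lay between -0.13 and 0.20 and no relation passed (permutation test, adjusted p from 0.541 to 0.829).

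Testes libraries (n = 18) gave r of 0.885 between ENSBTAG00000020100 and ENSBTAG00000008216, 0.843 between ENSBTAG00000020100 and ENSBTAG00000007237 and 0.751 between ENSBTAG00000007237 and ENSBTAG00000008216 (permutation test, adjusted p from 0.000108 to 0.00135), with rho of 0.674 to 0.868 and r of 0.570 to 0.794 without the 2 farthest libraries. Here the 95th percentile over all genes was 0.844 for ENSBTAG00000020100, 0.913 for ENSBTAG00000007237 and 0.804 for ENSBTAG00000008216, so that only the first of these relations exceeded it for both genes. The relations of ENSBTAG00000007237 did not hold among the 12 testes libraries above the gap, where r was 0.516 and 0.129 (permutation test, adjusted p = 0.179 and 0.844), and with the score removed over all 18 libraries they were 0.198 and 0.0702. ENSBTAG00000020100 and ENSBTAG00000008216 still varied together there (r = 0.707, permutation test, adjusted p = 0.0340). Among the 6 libraries below the gap r was 0.239 to 0.566, given as values with no test, since with 1 high plane library only 120 arrangements within diets exist. With ENSBTAG00000012925, r was -0.17 to 0.01 over all testes libraries.

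**Figure D4:**
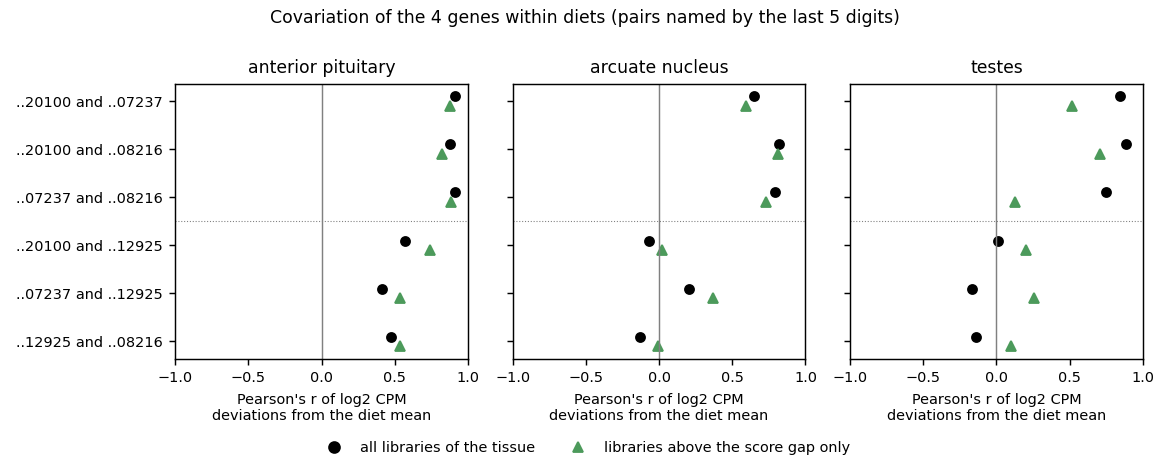
Pearson's r of within-diet log2 CPM deviations for each pair of genes in each tissue, over all libraries (circles) and over libraries above the gap in the score (triangles). Pairs above the dotted line are those among ENSBTAG00000020100, ENSBTAG00000007237 and ENSBTAG00000008216, with circles from 0.646 to 0.911, and those below it involve ENSBTAG00000012925.

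The genes most like each of the 4 in the anterior pituitary were found by the same within-diet correlation over 19 libraries, which share depth and library score, and these correlations are descriptions. ENSBTAG00000008216 was nearest to ENSBTAG00000002331 (r = 0.966), followed by ENSBTAG00000001343 and ENSBTAG00000005456 (r = 0.933 each). ENSBTAG00000020100 was nearest to ENSBTAG00000024449 and ENSBTAG00000019262 (r = 0.964 each) and then ENSBTAG00000002331 (r = 0.939). For ENSBTAG00000007237 the nearest were ENSBTAG00000021069 (r = 0.927), ENSBTAG00000002331 and ENSBTAG00000012861 (r = 0.922 each). The gene ENSBTAG00000002331 was thus among the 3 nearest of all 3 genes.

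These nearest genes came to 7 distinct ones, and 6 of the 7 were called lower on the low plane in the anterior pituitary by the quasi-likelihood test, where 0.493% of all genes were. The exception was ENSBTAG00000005456, with a log2 fold change of -1.45 ± 0.391 (SE; FDR = 0.133). The neighbours were picked in the same libraries for their likeness to genes that this contrast chose. Nothing is therefore read from the 6 of 7. In the testes the correlations with the same neighbours were 0.739 to 0.946, and in the arcuate nucleus, where 4 of the 7 were tested, 0.457 to 0.809. Against the 95th percentile over all genes (0.804 to 0.913 in the testes and 0.428 to 0.590 in the arcuate nucleus), 5 of 9 of these correlations were higher in the testes and 3 of 4 in the arcuate nucleus. None of the 7 was called in the testes.

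ENSBTAG00000012925 had weaker neighbours. The nearest was ENSBTAG00000015366 (r = 0.710), followed by ENSBTAG00000016131 (r = 0.639) and ENSBTAG00000002756 (r = 0.623), against a 95th percentile of 0.192 over all genes. None of these was called in the anterior pituitary, and ENSBTAG00000016131 came nearest with a log2 fold change of -0.52 ± 0.119 (SE; FDR = 0.0516). In the testes their correlations with ENSBTAG00000012925 were between -0.28 and 0.08, and in the arcuate nucleus, for the 2 tested there, -0.10 and 0.08.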

How the data were processed

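RNA was sequenced from 57 libraries of anterior pituitary, arcuate nucleus and testes of calves on 2 planes of nutrition. The authors deposited 1 file of read counts per gene for each library, as whole numbers without normalization. The submitters' processing notes name CASAVA 1.4, STAR, HTSeq and edgeR, and the genome build and annotation release are not given in the sources used here. The study left out 3 libraries with few reads, which are not analysed here. Samples were grouped by the tissue and diet in their labels.

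The 4 genes and all lists were chosen with earlier results of these data known. The files used list Ensembl identifiers only, and none of the 24616 could be matched to a symbol in the RefSeq gene table, so genes are given by identifier. For the same reason the planned gene lists and cell type markers were not used, and no sequence is shown.

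Diets were compared tissue by tissue with edgeR 4.0.16 (R 4.3.3), using TMM factors, filterByExpr with the diet as group, and quasi-likelihood F-tests whose p-values were adjusted after Benjamini and Hochberg over every gene tested (FDR, threshold 0.05). Tissues were compared in 1 fit of 6 tissue by diet groups, planned as a test but given for the 4 genes as a description, since it includes the values that chose them. Covariation used log2 CPM with a prior count of 2 and 100000 permutations within diets (Python 3.11.15, scipy 1.17.1), for which the smallest possible p is 1e-05. Groups were compared on the spread between libraries, which the labels present as separate samples. In no pair of libraries of a group did the counts agree within sampling noise (lowest chi-square per degree of freedom 2.76, for C37 and C22). C22 is shallow, which lowers this value, so it says little about that pair. The lowest value in pairs without C22 was 8.70, for A27 and A4. The fits were tested on simulated data. The genes named are the 4 and, for each, the 3 with the highest within-diet Pearson's r in the anterior pituitary. Alternatives were the exact test, DESeq2 1.42.0, RLE factors, no filter, a stricter filter (over 1 CPM in each library), the library score or the log2 total as covariate, 1 fit for all tissues, single diets and leaving out each library. Splitting libraries at the gap in the score was added after the data were seen.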

Additional observations from a re-analysis of the deposited data

Results flagged for a closer look

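In 9 of the 24 sets of libraries searched (4 genes in 6 groups) the highest library lay far from the rest of its group by Dixon's criterion. For independent sets of normally distributed values the criterion marks about 1 in 20, or 1.2 sets. It was applied to CPM and not to log2 CPM, and the genes share libraries, so 9 sets cannot be weighed against 1.2. These 9 came from 4 libraries. The low plane pituitary library A27 was high in ENSBTAG00000020100 (5.902 CPM, next library 2.754), ENSBTAG00000007237 (7.275 CPM, next 3.559) and ENSBTAG00000008216 (8.038 CPM, next 4.607).

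The high plane testes library B42 was high in the same 3 genes, at 29.69 CPM in ENSBTAG00000020100 (next 15.14), 53.98 CPM in ENSBTAG00000007237 (next 30.58) and 46.16 CPM in ENSBTAG00000008216 (next 29.71). B42 lies below the gap in the library score, at -0.65, and A27 above it, at 4.45. The high plane arcuate library C44, with a score of 4.97, was high in ENSBTAG00000007237 (6.602 CPM, next 2.194) and ENSBTAG00000012925 (5.043 CPM, next 2.973). The low plane arcuate library C6, which lies below the gap at -1.34, was high in ENSBTAG00000007237 (2.765 CPM, next 1.67).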

How the results depend on the processing

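In the anterior pituitary and the arcuate nucleus the 4 genes kept their direction under every alternative that gave a value. Both contrasts chose the genes, and the alternatives reuse the same libraries, so nothing is read from the kept direction. A filter of CPM above 1 in every library removed all 4 in the arcuate nucleus and 3 of 4 in the pituitary. No paired analysis was possible because the labels give no calf or shared replicate number. The number of genes past the threshold in the pituitary (81) became 139 with the exact test, 266 with DESeq2, 1298 with the library score, 1158 with the side of its gap as a factor, 174 in 1 fit over all tissues and 833 in libraries above the gap, and 48 to 88 when single libraries were left out. In the arcuate nucleus (0) it became 1 with the exact test, 1 with DESeq2 and 123 in 1 fit. In the testes (1057) it became 1947 with DESeq2, 609 without a filter, 2 with the log2 total count, 125 with the side of the gap, 0 in libraries above the gap and 158 to 4600 with single libraries left out. The cause was not tested.

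In the testes the score as covariate gave -0.71 for ENSBTAG00000020100 and -0.92 for ENSBTAG00000008216, both now past the threshold, and turned ENSBTAG00000007237 to -0.28 and ENSBTAG00000012925 to 0.0402. Of all genes 951 of 15310 were past it in that fit. With the side of the gap the values were -0.95 for ENSBTAG00000008216 (past the threshold), -0.73 for ENSBTAG00000020100 (FDR = 0.0739, not past it), -0.32 for ENSBTAG00000007237 and 0.0687 for ENSBTAG00000012925, and above the gap -0.33 for ENSBTAG00000007237. In 1 fit ENSBTAG00000012925 was at 0.0032. Leaving out single libraries gave -0.23 to 0.13 for ENSBTAG00000020100 and -0.0802 to 0.0707 for ENSBTAG00000012925.

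Between pituitary and arcuate nucleus ENSBTAG00000012925 was at 0.29 with DESeq2, 0.28 without a filter and 0.26 above the gap. On the low plane its sign turned (-0.041). On the high plane testes and pituitary differed by -0.0157 in ENSBTAG00000020100 and 0.14 in ENSBTAG00000008216. Removing the score left testes r of 0.198 for ENSBTAG00000020100 and ENSBTAG00000007237 and 0.0702 for ENSBTAG00000007237 and ENSBTAG00000008216, against 0.516 and 0.129 above the gap and 0.281 and 0.239 below it, where the 6 libraries give values with no test. ENSBTAG00000020100 and ENSBTAG00000008216 had 0.566 below the gap. With ENSBTAG00000012925, r became 0.0178 (above the gap) and 0.0134 (score removed) for ENSBTAG00000020100 in the arcuate nucleus, 0.256 for ENSBTAG00000007237 and 0.101 for ENSBTAG00000008216 in testes above the gap, and 0.573 for ENSBTAG00000008216 in the pituitary with the score removed, now past the threshold.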
